A study of Mus musculus with 6 samples.

Results

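The genes described here are 6 caspases, the pore-forming protein gene Gsdmd and the kinase gene Ripk3, 8 genes in all of the 17866 protein-coding genes in the table, chosen by symbol (Casp1, Casp4, Casp6, Casp8, Casp9, Casp12, Gsdmd and Ripk3). They were measured by RNA sequencing in corneal epithelium that had been separated from C57BL/6 mice aged 6 months, with 3 wild type (WT) libraries and 3 libraries labelled Rela-/- (KO here). Each library came from an independent biological sample. The study's methods give the KO mice as carrying Krt14-Cre and floxed Rela, so that Rela, which encodes the NF-κB subunit RelA, was removed from cells of the keratin 14 lineage and not from the rest of the cornea. The alleles carried by the WT mice are not given in the labels. All 8 genes were present in every library and all 8 passed the filter on low counts. Casp4 (6, 26 and 5 counts in WT) and Casp12 (5, 27 and 15) passed it through KO alone and could not be called lower.

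Caspases are proteases that cut their targets after aspartate and that carry out or start programmed cell death. Casp1 and Casp4 belong to the inflammatory caspases. Caspase-1 is activated in inflammasomes, matures interleukin-1β and interleukin-18 and cleaves gasdermin D, while the mouse product of Casp4 senses cytosolic lipopolysaccharide and cleaves gasdermin D directly. The released end of gasdermin D forms pores in the plasma membrane, a lytic death called pyroptosis. Casp8 and Casp9 are the initiators of apoptosis downstream of death receptors and of mitochondria, Casp6 is an executioner caspase, and Ripk3 phosphorylates MLKL in necroptosis, a further lytic death that caspase-8 holds back. In surface epithelia these routes remove infected or damaged cells and release inflammatory cytokines.

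In KO corneal epithelium the 3 inflammatory caspases Casp1, Casp4 and Casp12 rose between 7.85-fold and 8.38-fold, with log2 fold changes of 2.97 to 3.07, or of 3.26 to 4.20 without WT replicate 2, and these genes lie side by side on chromosome 9. Gsdmd fell to 37.1% of WT and Casp9 fell to 31.5% of WT. Casp6, Casp8 and Ripk3 did not pass the test, and their WT and KO values overlapped. At an adjusted p of 0.05 (edgeR), 5 of the 8 genes (62.5%) were called, 3 higher and 2 lower, and over all 13305 genes tested 62.0% were called, 31.8% higher and 30.2% lower. The share of the 8 genes that changed was thus close to that of all genes. Of the 3 called higher, Casp4 and Casp12 had passed the filter on low counts through KO alone. The stricter threshold of the deposited study requires a 2-fold change and an adjusted p no higher than 0.001. Applied here to the edgeR values, it was passed by 4 of the 8 genes, all but Casp4 of the 5 above. Those 4 genes were 2 higher and 2 lower, and over all genes 19.8% passed, 11.6% higher and 8.24% lower. Casp4 missed it narrowly in edgeR (adjusted p = 0.00104), while with DESeq2 its log2 fold change was 3.07 (adjusted p = 4e-08). KO values lay wholly above WT values for 3 of the 8 genes and wholly below for 2, and over all genes the groups did not overlap for 68.6%, 34.7% above and 33.9% below. The median log2 fold change of the 8 genes was 0.40, beside 0.01 over all genes tested. Among all genes tested, 5.91% had a log2 fold change at or above that of Casp1, 4.25% at or below that of Casp9 and 6.05% at or below that of Gsdmd.

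**Figure D1:**
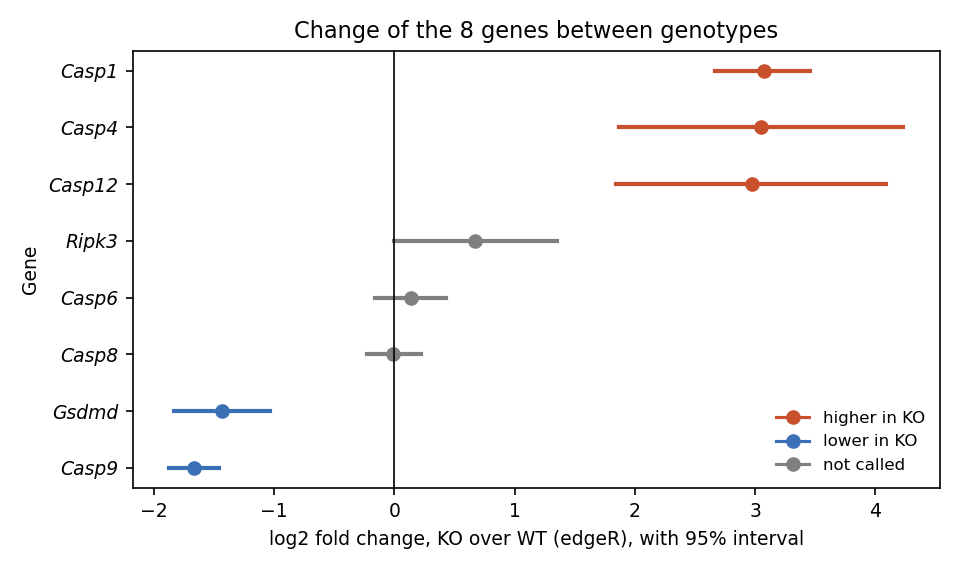
Log2 fold change (KO over WT, edgeR) of each of the 8 genes, with points for the estimates and bars for 95% confidence intervals. Casp1, Casp4 and Casp12 sit near 3, Casp9 and Gsdmd lie below -1, and the intervals of Casp6, Casp8 and Ripk3 include 0.

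Sequence before a start site is shown for 4 of the changed genes, the risers Casp1, Casp4 and Casp12 because they are neighbours, and Casp9 because its base composition differs from theirs. The windows of RefSeq (GRCm38.p6) run from 250 bases before to 50 bases after a start site, and 7 of the 8 genes had one. The plus strand is printed 5′ to 3′. It ends at the start of the gene in the table for Casp4 and Casp9, at the window's start site for Casp1 and at the end of a motif for Casp12. In Casp4 (chr9:5308599-5308824) capitals mark matches to the κB consensus, the motif bound by NF-κB. In Casp12 (chr9:5345226-5345448) they mark matches to the GAS motif TTCNNNGAA, bound by STAT proteins. In Casp9 (chr4:141793362-141793611) they mark CpG dinucleotides, and in Casp1 (chr9:5298267-5298516) nothing is marked.
Casp1: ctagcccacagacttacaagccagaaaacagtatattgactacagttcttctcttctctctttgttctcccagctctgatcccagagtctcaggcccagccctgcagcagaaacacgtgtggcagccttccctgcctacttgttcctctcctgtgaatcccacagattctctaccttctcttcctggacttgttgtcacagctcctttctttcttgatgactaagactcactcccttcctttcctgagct
Casp4: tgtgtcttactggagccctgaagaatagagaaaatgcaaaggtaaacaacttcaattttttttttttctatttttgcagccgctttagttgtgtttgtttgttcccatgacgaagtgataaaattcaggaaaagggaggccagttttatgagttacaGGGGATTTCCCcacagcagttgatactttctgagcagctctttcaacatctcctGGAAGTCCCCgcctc
Casp12: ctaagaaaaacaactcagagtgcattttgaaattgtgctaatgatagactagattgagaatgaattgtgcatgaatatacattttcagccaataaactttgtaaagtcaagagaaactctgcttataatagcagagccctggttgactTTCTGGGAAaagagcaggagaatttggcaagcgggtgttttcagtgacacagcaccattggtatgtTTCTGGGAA
Casp9: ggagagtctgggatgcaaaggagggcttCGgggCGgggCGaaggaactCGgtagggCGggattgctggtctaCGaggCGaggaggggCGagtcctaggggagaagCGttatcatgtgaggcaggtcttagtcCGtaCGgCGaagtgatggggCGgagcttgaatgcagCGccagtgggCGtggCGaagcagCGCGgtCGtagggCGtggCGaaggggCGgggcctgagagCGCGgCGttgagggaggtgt

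Both strands of all 32851 windows (27025 genes) were searched. The κB consensus was found in 8.46% of windows, GAS in 8.3% and the interferon motif ISRE, written GAAANNGAAA, in 3.44%. Casp4 held the κB consensus at chr9:5308756-5308766, where matches overlap on both strands, and at chr9:5308810-5308819 on the minus strand, 93 and 39 bases before its start site. A second start site 11 bases further on gave the same matches. Casp12 held GAS at chr9:5345374-5345382 and chr9:5345440-5345448, 102 and 36 bases before its start site, and each match reads on both strands because the motif is a palindrome. None of the 3 motifs was found in the windows of Casp1, Casp6, Casp8, Casp9 or Ripk3, and a window for Gsdmd was not analysed here. The Casp1 window lies at a start site inside the gene as the table draws it, because the table's Casp1 begins at 5297390, before the window's start site at 5298517. The windows of the risers were poor in CpG, with 3 in Casp1, 5 in Casp4 and 3 in Casp12, against a median of 7 over all windows. Their GC content was 48.0%, 42.0% and 41.0%, with a median of 52.7% over all windows. Casp9 held 28 CpG at 66.0% GC, Casp6 16 at 62.0%, Ripk3 10 at 52.7% and Casp8 5 at 42.0%. Casp8, which did not pass the test, thus had the same CpG number and GC content as Casp4. A motif match is a description of letters and not a measured binding site.

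The libraries were of like depth, with 20158404 to 20880347 estimated counts, so 3 counts in a library corresponded to 0.137 to 0.152 CPM, which are counts per 1000000 counts of the library. Rela itself was counted 1871, 1844 and 1855 times in WT and 318, 223 and 313 times in KO (log2 fold change -2.60, SE 0.141). All 6 corneal epithelium markers fell in KO, from a summed 87100 to 90200 CPM to 21100 to 24000 CPM. The 5 epidermis markers tested rose, from 15.1 to 20.3 CPM to 11600 to 24000 CPM. Over all genes tested 30.2% were called lower and 31.8% higher. Of the epidermis markers, Lor, Flg and Krtdap passed the filter on low counts through KO alone and could not be called lower. In KO the corneal genes Krt12 and Aldh3a1 remained at 7120 and 4110 CPM, which was 19.5% and 19.3% of WT. Beside them the epidermal keratins Krt1 and Krt10 stood at 6040 and 6880 CPM. The label cornea epithelium was thus met in WT, while KO held corneal and epidermal genes together. By immunostaining at this age the study reports a switch from K12 to the epidermal K1 and loss of Pax6. WT replicate 2 stood apart from the other WT libraries, with 25395 estimated counts of Krt14 against 5207 and 6712, and 18787 of Krt16 against 209 and 360. Results that rest on this library are given with and without it.

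Casp1 (gene 12362, chr9:5297390-5307288, plus strand, GRCm38), the inflammasome protease, was counted 74, 121 and 96 times in WT replicates 1, 2 and 3 and 750, 735 and 780 times in the KO replicates. Every KO library was therefore several fold above the highest WT library, and the KO libraries lay close together. In CPM this was 4.52 ± 1.12 (SD, n = 3) in WT and 37.9 ± 1.00 (n = 3) in KO, 8.38-fold higher. The log2 fold change was 3.07 (SE 0.173, 95% interval 2.67 to 3.46, adjusted p = 3.24e-06). Without WT replicate 2 it was 3.26.

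Casp4 (gene 12363, chr9:5308825-5336791, plus strand), the lipopolysaccharide-sensing caspase, was a low gene. The WT libraries held 6, 26 and 5 counts and the KO libraries 86, 84 and 117. The groups did not overlap, and WT replicate 2 held most of the WT counts. Its level was 0.574 ± 0.551 CPM (SD, n = 3) in WT and 4.80 ± 0.895 CPM (n = 3) in KO, 8.37-fold higher. The log2 fold change was 3.05 (SE 0.514, 95% interval 1.87 to 4.23, adjusted p = 0.00104). Without WT replicate 2 it was 4.20, so the size of the rise depended on that library while its call did not.

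Casp12 (gene 12364, chr9:5345442-5373034, plus strand), a caspase grouped with the inflammatory ones by sequence and position, was counted 5, 27 and 15 times in the WT libraries and 86, 94 and 164 times in the KO libraries. Again the groups did not overlap, WT replicate 2 was the highest WT library, and KO replicate 3 stood above the other KO libraries. The means were 0.732 ± 0.514 CPM (SD, n = 3) in WT and 5.75 ± 2.11 CPM (n = 3) in KO, 7.85-fold higher. On the log2 scale the change was 2.97 (SE 0.490, 95% interval 1.84 to 4.09, adjusted p = 0.000935). Without WT replicate 2 the log2 fold change was 3.61. The intervals of the 3 inflammatory caspases overlapped widely, and the differences between their fold changes were not tested.

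**Figure D2:**
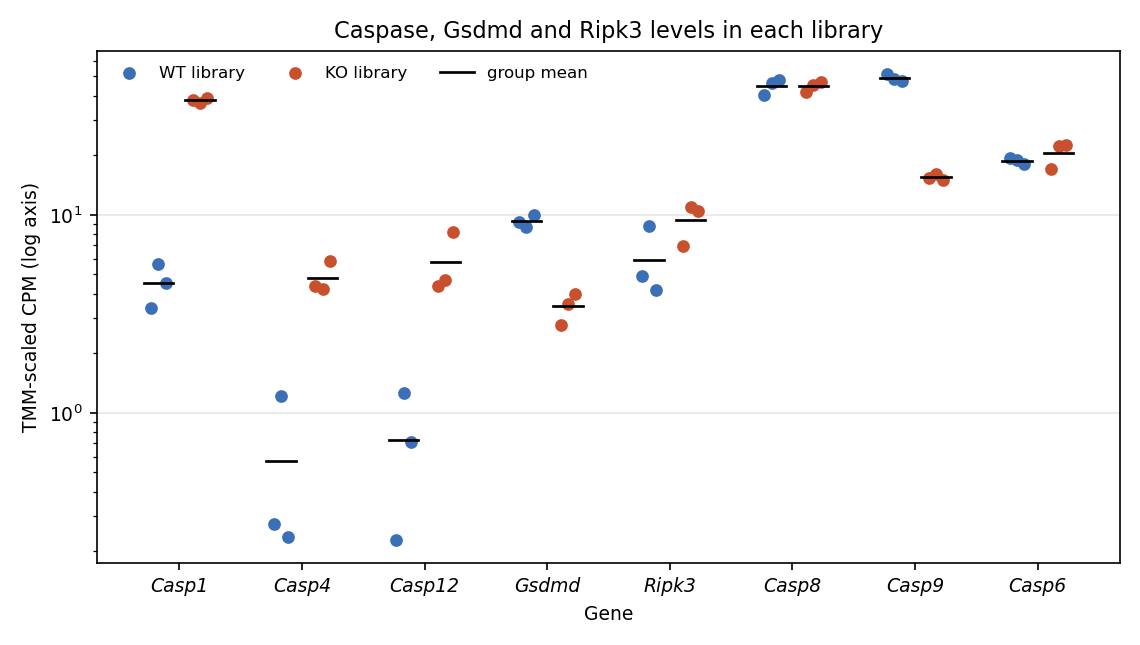
CPM of each of the 8 genes in every library on a log axis, with 1 point per library (WT and KO in separate colours) and a line at each group mean. The 3 KO points lie above the 3 WT points for Casp1, Casp4 and Casp12 and below them for Casp9 and Gsdmd, and the groups overlap for Casp6, Casp8 and Ripk3.

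The 3 genes follow each other on the plus strand within 75.6 kb (chr9:5297390-5373034), and no other gene of the table lies in that span. The nearest tested gene before the cluster, Msantd4, lies 910 kb away and rose by 0.38 on the log2 scale (adjusted p = 0.0324), and Kbtbd3 beyond it had -0.59 (adjusted p = 0.0347). Both calls were lost under several other settings, 7 of 16 for Msantd4 and 8 of 16 for Kbtbd3. After the cluster, Dync2h1, 1550 kb away, fell with a log2 fold change of -1.41 (adjusted p = 0.000107), and Dcun1d5 rose by 0.52 (adjusted p = 0.00625). These last genes overlap on opposite strands, and whether reads were counted by strand is not stated. Gria4 and Pdgfd, the genes next to the cluster on either side, had at most 3 counts in any library and were not tested. The tested neighbours thus moved in both directions, with log2 fold changes of -1.41 to 0.52 beside 2.97 to 3.07 in the cluster.

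**Figure D3:**
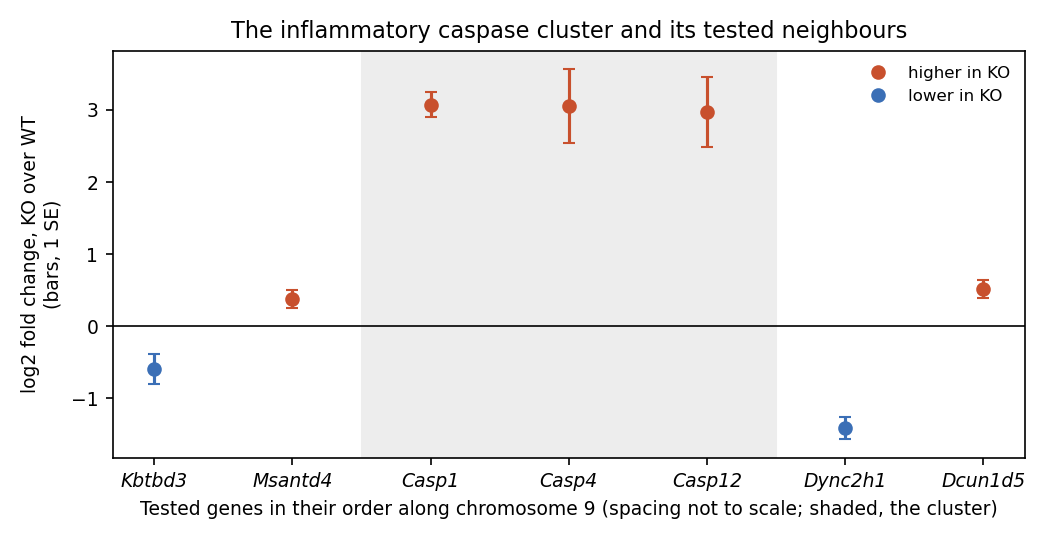
Log2 fold change (KO over WT, edgeR) with bars of 1 SE for the tested genes around the inflammatory caspase cluster, placed in chromosome order and not by distance, with the cluster shaded. Casp1, Casp4 and Casp12 lie near 3, while the 4 neighbours lie between -1.41 and 0.52.

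Most markers of blood cells rose along with these caspases. Of the 12 myeloid markers, all tested, 9 rose and Itgam fell, and the KO libraries lay above the WT libraries for 10. Over all genes tested 31.8% were called higher, and all KO libraries lay above all WT libraries for 34.7%. The marker lists are short, and their shares were not tested against these. Ptprc, the pan-leukocyte gene that encodes CD45, was counted 13, 5 and 8 times in WT and 105, 87 and 123 times in KO. The summed level of the list was 271 to 342 CPM in WT and 211 to 295 CPM in KO, led by Itgam and Cd68. Without those genes, a choice made after their values were seen, it was 5.40 to 6.63 CPM in WT and 41.6 to 56.0 CPM in KO. All 4 tested of 7 T lymphocyte markers rose (summed 0.852 to 1.07 CPM in WT and 4.01 to 8.67 CPM in KO). All 4 tested of 6 stromal markers rose (0.687 to 2.74 CPM and 13.6 to 23.3 CPM). Of 4 endothelium markers, Cdh5 was not in the table, and Kdr and Tek had at most 2 counts in any library and were not tested. Pecam1 rose, counted 1, 3 and 4 times in WT and 15, 14 and 16 times in KO. The summed level, 0.0458 to 0.237 CPM in WT and 0.810 to 0.897 CPM in KO, was mostly Pecam1. A change of endothelium cannot be read from this 1 gene. No marker of these lists that was in the table was at 0 in all libraries, but the stromal marker Lum had at most 4 counts in any library. The myeloid genes Adgre1 and Lyz2 had at most 2 counts in any WT library. The T lymphocyte genes Cd3d and Cd3g and the stromal genes Dcn and Col1a2 had at most 3. The tested genes among these passed the filter on low counts through KO alone and could not be called lower. The same held for others with few WT counts, among them Ptprc, Csf1r, Tyrobp, Fcer1g, Lck and Pecam1. The FPKM of Casp1 divided by that of Ptprc was 18.3, 77.4 and 38.2 in WT and 23.3, 28.8 and 20.8 in KO, and these ratios overlapped between the groups. In WT the divisor, Ptprc, was only 0.13, 0.05 and 0.08 FPKM. The WT ratios are therefore imprecise, and no conclusion is drawn from the overlap. The part of such cells in the rise of Casp1, Casp4 and Casp12 was not tested. In bulk epithelium a larger number of cells of a type and more RNA per cell cannot be told apart.

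Gsdmd (gene 69146, chr15:75862143-75867408, plus strand), whose product forms the pyroptotic pore, was counted 200, 187 and 211 times in WT and 55, 71 and 80 times in KO. All KO libraries lay below all WT libraries. The level was 9.28 ± 0.654 CPM (SD, n = 3) in WT and 3.44 ± 0.609 CPM (n = 3) in KO. On the log2 scale the change was -1.43 (SE 0.174, 95% interval -1.83 to -1.03, adjusted p = 0.00018). The pore gene therefore moved opposite to Casp1 and Casp4, whose products cleave gasdermin D. The FPKM of Casp1 divided by the FPKM of Gsdmd was 0.434, 0.757 and 0.534 in WT and 16.1, 12.2 and 11.4 in KO.

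Casp9 (gene 12371, chr4:141793612-141815978, plus strand), the initiator caspase of the apoptosome, was counted 1123, 1043 and 1004 times in the WT libraries and 304, 319 and 302 times in the KO libraries. The spread within each group was small beside the difference between them. Its level fell from 49.2 ± 2.03 CPM (SD, n = 3) to 15.5 ± 0.482 CPM (n = 3). On the log2 scale the change was -1.67 (SE 0.0905, 95% interval -1.87 to -1.46, adjusted p = 2.73e-06). The FPKM of Casp9 divided by that of Casp8 was 0.803, 0.663 and 0.614 in WT and 0.229, 0.218 and 0.202 in KO, so every KO ratio lay below every WT ratio. In GENCODE M21 the last 1017 bases of Casp9 overlap Cela2a and Ctrc on the opposite strand. These genes were not analysed here, and reads of that stretch cannot be assigned without strand.

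Casp8 (gene 12370, chr1:58795228-58847503, plus strand), the initiator downstream of death receptors, held 881.67, 995 and 1012 estimated counts in the WT libraries and 826, 902.88 and 942 in the KO libraries. The libraries of both groups were interleaved. The means were 44.9 ± 3.95 CPM (SD, n = 3) and 44.7 ± 2.61 CPM (n = 3), and the log2 fold change was -0.01 (SE 0.0998, 95% interval -0.23 to 0.22, adjusted p = 0.965). This interval runs from 0.850-fold to 1.17-fold. Some of its counts are not whole because RSEM shares reads that map to several genes.

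Casp6 (gene 12368, chr3:129901415-129914112, plus strand), an executioner caspase, was counted 424, 406 and 380 times in WT and 338, 442 and 454 times in KO, where replicate 1 was the lowest of all libraries and the others were the highest. The means were 18.8 ± 0.722 CPM (SD, n = 3) and 20.6 ± 3.06 CPM (n = 3). Its log2 fold change of 0.14 (SE 0.129, 95% interval -0.16 to 0.43, adjusted p = 0.383) did not pass the test, and the interval allows 0.895-fold to 1.35-fold.

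Ripk3 (gene 56532, chr14:55784995-55788857, minus strand), the necroptosis kinase, was counted 107, 188 and 88 times in WT and 137, 220 and 209 times in KO. WT replicate 2 lay among the KO libraries and the groups overlapped. The means were 5.94 ± 2.46 CPM (SD, n = 3) and 9.46 ± 2.21 CPM (n = 3), and the log2 fold change was 0.67 (SE 0.295, 95% interval -0.00 to 1.35, adjusted p = 0.0778). Without WT replicate 2 the log2 fold change was 1.07 (adjusted p = 0.00525) and without KO replicate 1 it was 0.85 (adjusted p = 0.0462). Whether Ripk3 was called thus depended on single libraries.

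Per length, the order of the 8 genes differed between the groups. In WT the mean FPKM was highest for Casp8 (19.2), followed by Casp6 and Casp9 at 13.2 each, whose ranges overlapped, and by Gsdmd at 5.44. Ripk3 (3.24) and Casp1 (3.10) overlapped, and Casp4 (0.450) and Casp12 (0.337) were lowest and overlapped as well. In KO Casp1 was highest at 24.3 FPKM, above Casp8 at 17.9 and Casp6 at 13.6, and these 3 did not overlap. Below them lay Ripk3 (4.85), Casp9 (3.86), Casp4 (3.40), Casp12 (2.37) and Gsdmd (1.88), where each overlapped the next. The summed FPKM of the 8 genes was 56.4, 61.4 and 56.6 in WT and 65.4, 74.4 and 76.7 in KO. Casp1, Casp4 and Casp12 made up 4.73%, 8.86% and 6.28% of that sum in WT and 44.5%, 39.1% and 41.8% in KO.

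**Figure D4:**
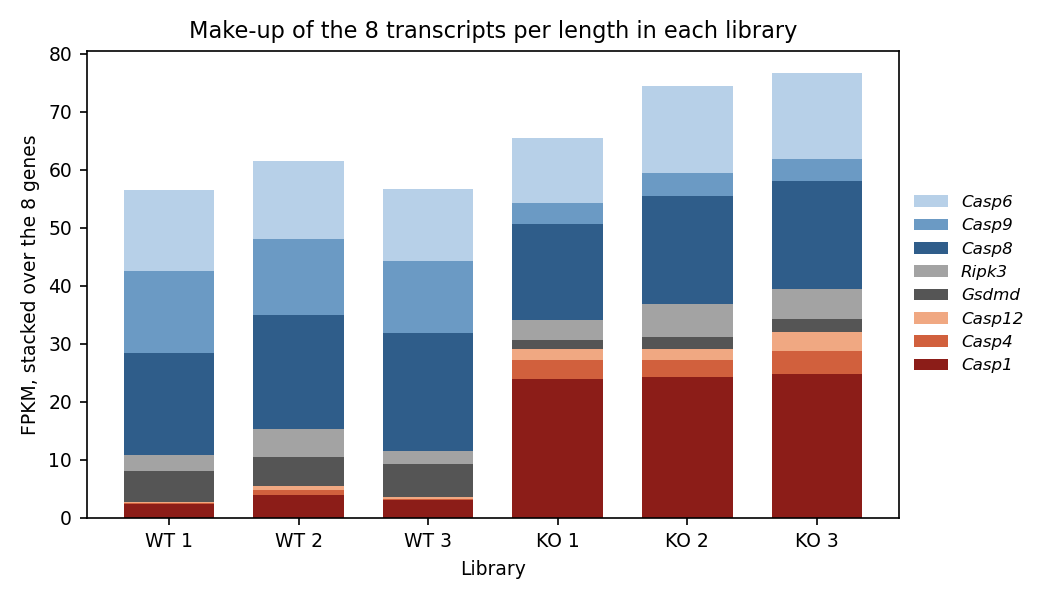
Stacked bars of FPKM for the 8 genes in each of the 6 libraries, 1 bar per library, starting at 0. Casp1, Casp4 and Casp12 together fill under 9% of each WT bar and between 39.1% and 44.5% of each KO bar.

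The genes around the 8 were described with 7 lists of cell death and inflammasome genes. Over all genes tested 62.0% were called, 31.8% higher and 30.2% lower. The share called was 57.1% for inflammasome sensors, 66.7% for the apoptosome and 75.0% for both other caspases and necroptosis. It was 77.8% for death receptors, 85.7% for caspase-1 substrates and 100% for gasdermins. These lists are short, and their shares were not tested against that of all genes. Among 17 inflammasome sensors and adaptors, 14 were tested, of which 3 rose and 5 fell, with a median log2 fold change of 0.14. The balance depended on the setting, with 5 higher and 3 lower under a gene length correction and 6 higher and 5 lower with DESeq2. Pycard, which encodes the adaptor ASC that links sensors to caspase-1, rose 2.63-fold, from 62.4 ± 7.03 to 164 ± 15.1 CPM (SD, n = 3 each, adjusted p = 2.15e-05). The largest rise was that of Nlrp10, an NLR family member, from 0.484 ± 0.320 to 23.6 ± 8.90 CPM (n = 3 each). The largest fall was that of the sensor gene Nlrp6, which was counted 23, 25 and 23 times in WT and 2, 4 and 1 times in KO. Nlrp10 passed the filter on low counts through KO alone and could not be called lower. Nlrp6 passed it through WT alone and could not be called higher. Nlrp1b, a sensor of protease activity, fell by 1.57 on the log2 scale and Naip2, a receptor for bacterial secretion proteins, fell by 1.41, but reads of these genes can be shared with close paralogs. The sensor gene Nlrp3 had at most 1 count in WT and 8, 8 and 3 counts in KO, and was not tested. Aim2, the DNA sensor, had a log2 fold change of 0.38 and did not pass the test (adjusted p = 0.105).

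The gasdermin list held the other pore-forming gasdermins and Ninj1, which ruptures the membrane after pores form. All 6 tested of its 9 genes rose, opposite to Gsdmd, beside 31.8% called higher over all genes tested. However, Gsdmc, Gsdmc2, Gsdmc3 and Gsdmc4 had at most 7 counts in any WT library. They passed the filter on low counts through KO alone and could not be called lower. Gsdma, expressed in skin, went from 14, 30 and 28 counts to 4654, 2979 and 3543, 167-fold higher (log2 fold change 7.38, SE 0.286). Gsdmc was counted 1, 7 and 0 times in WT and 7618, 10881 and 9187 times in KO. At 188 ± 36.1 FPKM (SD, n = 3) it stood far above the 1.88 FPKM of Gsdmd in KO. Gsdmc2 had no counts in WT and 123.46, 181.32 and 872.25 in KO, at least 140-fold higher when taken against 3 counts per library, and at least 54.8-fold higher without KO replicate 3, a bound added after the values were seen. Gsdmc3 had no counts in WT either and 57.77, 80.09 and 44.77 in KO, at least 21.9-fold higher. The Gsdmc genes are close paralogs whose counts were not whole, so the division of reads among them is uncertain. Ninj1 rose 1.95-fold (adjusted p = 0.000253). The median log2 fold change of the tested list was 8.18, or 6.02 with the 3 genes at or under 3 counts in every WT library set at their lower bound. Gsdme, a further gasdermin, had 3 to 16 counts in WT and 6 to 11 in KO and was not tested.

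Of 7 interleukin-1 family ligands and their inhibitors, a list headed caspase-1 substrates and their control, 6 rose and none fell (median log2 fold change 1.52). Il1b, whose product caspase-1 matures, was counted 8, 3 and 5 times in WT and 52, 241 and 190 times in KO (log2 fold change 4.99, SE 0.660). Even so its KO level, 5.75 ± 3.58 FPKM (SD, n = 3), was below that of Casp1. Il1b passed the filter on low counts through KO alone and could not be called lower. The alarmin gene Il33 rose from 193, 269 and 429 counts to 1597, 1950 and 1952. Il1rn, which encodes the receptor antagonist, rose 2.88-fold and Il1r2, the decoy receptor gene, had a log2 fold change of 1.96. Il18 (0.44, adjusted p = 0.0439) and Il1a (0.43, adjusted p = 0.0216) were called, but the call was lost under 10 and 6 of 16 other settings, among them for Il18 a gene length correction, with which its log2 fold change was -0.19.

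Among the other caspases, Casp14, the caspase of cornifying epidermis, rose 2.27-fold from 222, 215 and 341 counts to 552, 514 and 578. Casp2 fell to 67.9% of WT (adjusted p = 0.00101). Both changes were larger than the spread between replicates.

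The partners of Casp9 moved both ways. Of 9 genes of the apoptosome and of mitochondrial release, 3 rose, 3 fell and 3 did not pass the test, with a median log2 fold change of -0.12. Apaf1, the scaffold on which caspase-9 is activated, did not pass the test (log2 fold change -0.12, SE 0.105, adjusted p = 0.366). Cycs, which encodes cytochrome c, rose 2.09-fold (adjusted p = 0.000412). Xiap, an inhibitor of caspase-9, fell to 54.9% of WT (adjusted p = 4.2e-05). Htra2, encoding a protease that relieves that inhibition, fell by 0.71 on the log2 scale.

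Of 10 genes of the death receptor complex that activates caspase-8, 9 were tested, 3 rose and 4 fell (median log2 fold change -0.10). Fadd, the adaptor that recruits caspase-8, fell to 63.6% of WT (adjusted p = 0.0012). Cflar, which encodes the caspase-8 regulator FLIP, had a log2 fold change of 0.15 and did not pass the test (adjusted p = 0.264). The largest rise was that of the receptor gene Fas, counted 20, 17 and 6 times in WT and 31, 34 and 29 times in KO. Fas passed the filter on low counts through KO alone and could not be called lower. The largest fall was that of the ligand gene Tnf, counted 51, 120 and 151 times in WT and 33, 25 and 50 times in KO. In CPM its groups overlapped, with 2.34 in WT replicate 1 and 2.49 in KO replicate 3. The calls for Fas and Tnf were each lost under 3 other settings, and no gene of this list passed the stricter threshold.

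Around Ripk3, 8 genes of necroptosis were tested, of which 4 rose and 2 fell (median log2 fold change 0.17). Mlkl, the executioner that RIPK3 phosphorylates, was counted 46, 136 and 33 times in WT and 140.25, 185 and 179 times in KO. As for Ripk3, WT replicate 2 was the highest WT library. Its log2 fold change was 1.34 (adjusted p = 0.0298), and it was 2.20 without WT replicate 2 (adjusted p = 0.000144). The call was lost without WT replicate 1 (adjusted p = 0.0914), WT replicate 3 (0.0679), KO replicate 2 (0.0756) or KO replicate 3 (0.0675). Ripk1, the partner kinase, had a log2 fold change of -0.16 (adjusted p = 0.111). The largest rise was that of Ppif (1.88), which encodes the mitochondrial cyclophilin, and the largest fall that of the deubiquitinase gene Cyld (-0.87).

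**Figure D5:**
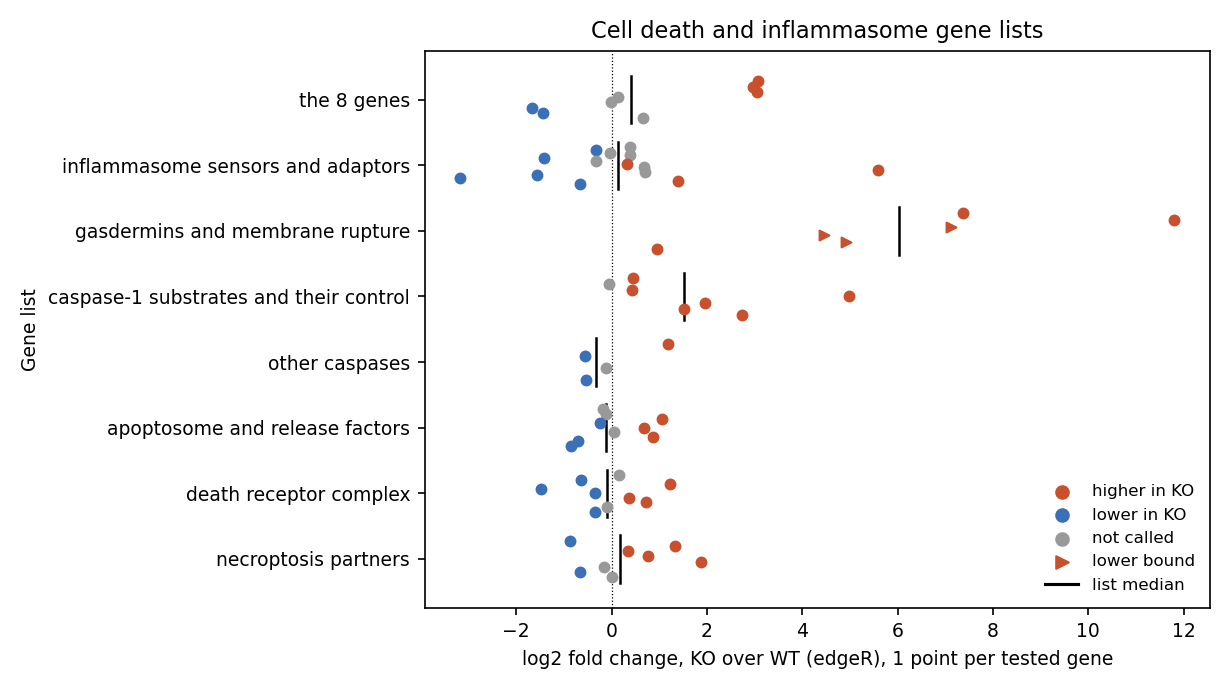
Log2 fold change (KO over WT, edgeR) of each tested gene of the 8 genes and of 7 related lists, 1 point per gene, coloured by call, with a line at each list's median. Triangles are lower bounds for 3 Gsdmc paralogs with at most 3 counts in every WT library. The gasdermin list lies wholly above 0. The caspase-1 substrate list lies above 0 except for Il18bp at -0.05, and the other lists lie on both sides of 0.

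The genes most like each of the 8 across the 6 libraries were found from log2 CPM centred on each gene's mean, as the tested gene outside the lists with the smallest root mean square difference. Casp1 was matched by Ano6 (0.0756), Casp4 by Plod2 (0.154) and Casp12 by Chpf (0.121). Casp9 was matched by Card6 (0.0480) and Gsdmd by Cyp4a12b (0.0560). Ripk3 was matched by Gins1 (0.0782), Casp8 by Dedd (0.0389) and Casp6 by D6Wsu163e (0.0202). For Casp1 and Ano6 the CPM of Ano6 was 2.02, 3.35 and 3.17 in WT and 24.7, 24.0 and 23.8 in KO, a log2 fold change of 3.09.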

How the data were processed

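RNA was measured in 3 WT and 3 KO libraries of separated corneal epithelium, grouped by title and genotype label. The study's methods give ribosomal RNA depletion and a BGI instrument, the labels an Illumina kit. The submitters' processing notes name Bowtie2 2.2.5, RSEM 1.2.12 and mm9, but the coordinates in the table are those of GRCm38. The authors deposited per library the estimated counts of RSEM, FPKM values (scaled by gene length and library total) and TPM values. The TPM values the authors deposited served only as a check, since they sum to 1000000. The authors' group means and DESeq2 columns (their fold changes with p-values) were not used. Strand was not stated.

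Estimated counts were rounded and tested over 13305 genes with edgeR 4.0.16 (R 4.3.3, TMM, filterByExpr, quasi-likelihood, genotype as the only term, Benjamini-Hochberg adjustment, two-sided). CPM values carry the TMM factors. Each SE was derived from the fold change and its F statistic, as the size of the former over the root of the latter. The code was tested on simulated data. TMM factors were 1.01 to 1.05 in WT and 0.952 to 0.990 in KO. Intervals rest on 3 libraries per group. At this depth 3 counts is the floor, which covers counting error only. Levels between genes were compared in FPKM.

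Alternatives tried were no filter on low counts, DESeq2 1.42.0, total counts only, RLE factors, a mean count of at least 50, limma 3.58.1 on log2(FPKM + 1) and log2(FPKM + 0.1), a robust fit, a gene length correction, the replicate number as a block, leaving out each library, and, for counts of calls, the study's threshold. Named were all 8 genes, Rela, the largest called rise and fall of each list, other list genes with a mean FPKM of at least 1 in a group, neighbours of the cluster, and for likeness the nearest gene. Nlrp3, Gsdme and the Gsdmc paralogs were named after their values were seen. The 8 genes and the lists were chosen with earlier results of these data known. Replicate numbers do not pair the libraries. Protein sequences were not analysed here, and some genes of the other caspases list are not reported here.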

Additional observations from a re-analysis of the deposited data

How the results depend on the processing

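All 5 calls among the 8 genes kept their direction and threshold under the 16 alternatives, with log2 fold changes of 2.64 to 3.26 (Casp1), 1.64 to 4.20 (Casp4), 1.33 to 3.61 (Casp12), -1.76 to -1.46 (Casp9) and -1.56 to -1.17 (Gsdmd). The lowest values of Casp4 and Casp12 were on the log2(FPKM + 1) scale, which understates changes of low genes. The replicate numbers only count the libraries, and deviations of same-numbered libraries from their group means were nearly uncorrelated across genes (r of 0.0542, -0.0217 and 0.0610, and not every library correlated best with its own number). With the replicate number as a block, 8083 of all genes were called, and 6 of the 8 genes with Ripk3 among them (0.71, adjusted p = 0.0320). Signs turned mostly for genes that were not called, near 0. Casp8 was 0.00 with RLE factors, 0.02 at a mean count of at least 50, 0.04 with the gene length correction and between -0.07 and 0.06 when 1 library was left out. The gene length correction turned Casp6 to -0.08, Apaf1 to 0.21, Ripk1 to 0.03 and, among called genes, Il18 to -0.19. The cause was not tested. Over all genes 4231 were higher and 4022 lower, but with total counts only 3709 were higher and 4630 lower, and on log2(FPKM + 1) 3740 and 4642. At the study's threshold applied to the edgeR values, which is stricter by construction, 2639 genes were called over all genes against 8253. Among the lists it left 4 inflammasome genes, 3 in the caspase-1 substrate list, 1 other caspase and 1 apoptosome gene. It also left 1 necroptosis gene and 0 death receptor genes (7 at an adjusted p of 0.05). Leaving out 1 library gave 7282 to 8145 calls over all genes, 5 to 6 among the 8 genes and 3 to 5 in the death receptor list, with 3 without KO replicate 1 and 4 without KO replicate 2.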
